A study of Populus ussuriensis with 12 samples.

Results

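The subject is the response of wild-type poplar roots to excess zinc, taken from the 6 of 12 libraries of the series that carry a WT title: 3 from excess Zn (WT Zn) and 3 from control conditions (WT control). These members were chosen by title alone. The plants were Populus ussuriensis grown in vitro on agar medium with sucrose, and RNA came from roots of plants aged 21 days. WT Zn plants were described as under Zn excess for 2 weeks after 1 week of pre-culture, with 1.2 mM ZnSO4; the treatment text is attached to the controls too and was read as belonging to the Zn groups. WT control plants were described as kept in control conditions for the same time. The other 6 libraries, 3 from Zn (OE Zn) and 3 from control conditions (OE control), came from plants overexpressing PuHSFA4a. They enter here to estimate the spread, to supply genes chosen outside WT and as values set beside those of WT. Whether libraries of the same group derive from separate plants, pools or 1 RNA sample is not stated, and the spread behind a p-value may be technical. The number of overexpressing lines is not stated either.

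Zinc is an essential cofactor of many enzymes and transcription factors, and in excess it competes with iron and manganese and disturbs the redox balance of cells. In plants generally, zinc enters roots through transporters of the ZIP family, is stored in vacuoles by cation diffusion facilitators, moves to the xylem through heavy metal ATPases and is bound by nicotianamine, glutathione and phytochelatins. Roots are the first organ to meet the excess, and slower root growth is a common outcome. The deposited files give genes by ID and locus and pair no ID with a name. Genes are therefore described by ID, position, level and response, with no function assigned, and neither the root label nor any of these zinc pathways could be checked against marker genes. In whole roots, a lower value can mean fewer cells of a type or less RNA per cell, and these cannot be told apart.

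The 6 WT libraries held 16647916 to 21206585 counts each. A floor of 3 counts corresponded to 0.141 to 0.180 CPM, for counting error only. Levels below are CPM, counts relative to library totals after TMM scaling (a trimmed mean of log ratios), and 25871 genes passed the filter on low counts. WT Zn 3 and WT control 3 lay furthest from the other libraries of their groups. The coefficient of variation common to all genes was 15.7% over the 3 WT Zn libraries and 10.3% between WT Zn 1 and WT Zn 2. It was 14.2% over the 3 WT control libraries and 9.95% between WT control 1 and WT control 2. Pairs with WT Zn 3 gave 19.9% and 15.6%, and pairs with WT control 3 gave 16.7% and 15.3%. Leaving out the most distant library lowers such a value by construction. Over the 3 libraries of OE control and of OE Zn it was 13.1% and 13.8%, close to the WT control value. By chi-square per degree of freedom, OE Zn 2 and OE Zn 3 differed by 21.1. WT control 3 differed from WT control 1 and 2 by 15.7 and 13.5, and WT Zn 3 from WT Zn 1 and 2 by 33.0 and 16.6. In a principal component analysis of the 6 WT libraries the first component held 64.9% of the variance and separated the groups. WT Zn 1, WT Zn 2 and WT Zn 3 lay at 35.1, 43.4 and 58.7 on it, against -40.8, -39.5 and -56.9 for WT control 1, WT control 2 and WT control 3. The third libraries thus both lay outermost, in opposite directions.

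Zn changed the level of 7730 genes in WT roots, 29.9% of those tested. Higher on Zn were 3970 genes (15.3%) and lower were 3760 (14.5%), while 18141 did not pass (edgeR quasi-likelihood test, Benjamini-Hochberg adjusted p under 0.05 over all genes). The balance depended on scaling: 4283 genes were higher and 3474 lower after upper-quartile scaling, and 3893 and 3883 with median-ratio size factors. Most changes were small. The median absolute log2 fold change of the called genes was 0.62, and 5510 of them (71.3%) changed less than 2-fold. Toward larger changes the balance moved to genes that rose. From an absolute log2 fold change of 2 upward there were 414 higher and 225 lower genes, and from 4 upward 72 and 22. Without the third libraries 319 higher and 179 lower genes reached 2, and 58 and 19 reached 4. The WT Zn and WT control libraries did not overlap for 7570 of the 7730 called genes and overlapped for 160. Over all genes tested, 44.5% did not overlap. The calls came from the same libraries and favour groups that stay apart, so this is no separate support for them.

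**Figure D1:**
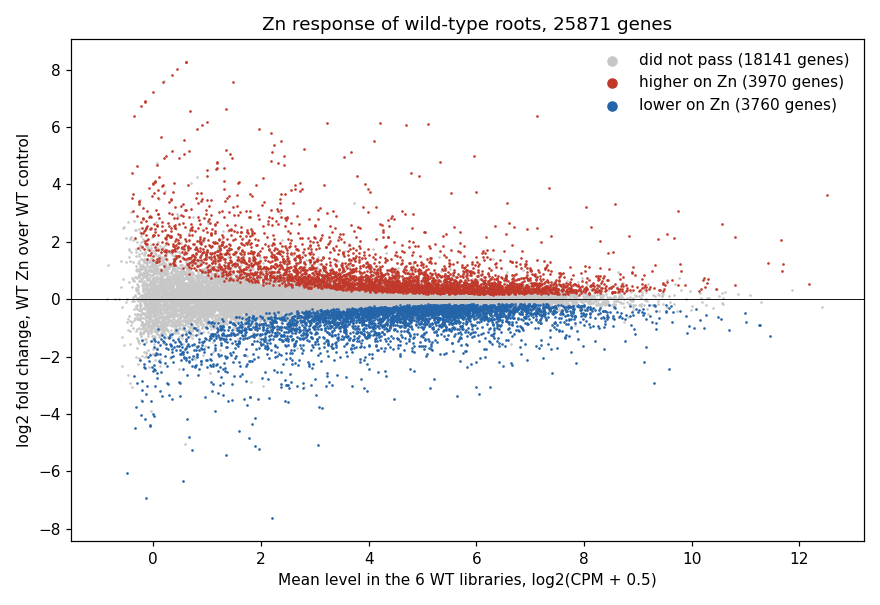
Each point is 1 of 25871 genes; the horizontal axis gives its mean level in the 6 WT libraries as log2(CPM + 0.5) and the vertical axis its log2 fold change, WT Zn over WT control. The 3970 genes called higher and the 3760 called lower cover the whole range of levels. The called changes are largest among genes at low levels, where only large changes can pass.

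The share of called genes followed their level. Among 165 genes with a mean of 500 CPM or more over all 12 libraries, 30.9% were higher and 27.9% lower. Among 2095 genes under 1 CPM the shares were 9.88% and 5.63%. Called changes were larger at low levels. The median absolute log2 fold change of called genes was 0.57 in the highest class, 0.44 between 20 and 100 CPM and 2.19 under 1 CPM. Where counts are few, only large changes can pass. The shares and sizes by level therefore depend on depth and are not read as a trait of the response. With all libraries, the gain in CPM was concentrated in fewer genes than the loss. It took 112 genes to make up 50% of the summed gain of the called genes, and 1 gene, Potri.013G101000.v3.0, held 9.07% of it. That gene stood at 6399, 8299 and 17928 CPM in WT Zn 1, 2 and 3, so its share leaned on WT Zn 3. It took 215 genes to make up 50% of the summed loss, and the gene that lost most held 2.64%. The concentration was not computed without the third libraries.

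Where the WT mean was 5 CPM or more and the groups did not overlap, 8 genes had the largest rise, with log2 fold changes of 5.12 to 6.37. Potri.006G232600.v3.0 (chromosome 6, 24252200 to 24254376, minus strand) stood at 97.6, 201 and 521 CPM in WT Zn 1, 2 and 3, against 4.32, 2.79 and 2.73 CPM in WT control 1, 2 and 3. Its log2 fold change was 6.37 (adjusted p = 0.000105 by edgeR, SE 0.61). Every Zn library was far above every control library, yet the Zn libraries themselves spanned a more than 5-fold range with WT Zn 3 at the top. Potri.006G179300.v3.0 (chromosome 6, 19327697 to 19329076, plus strand) stood at 22.3, 69.1 and 108 CPM in WT Zn, against 1.44, 0.912 and 0.464 CPM in WT control (log2 change 6.10 with SE 0.66, adjusted p = 0.000163 by edgeR). Potri.018G088500.v3.0 stood at 25.5, 60.2 and 64.7 CPM in WT Zn, against 1.49, 0.355 and 0.290 CPM in WT control. Its listed span (chromosome 18, 11580609 to 11739603) overlaps 5 other genes, 4 of them on the same strand, so its reads may not be told apart from theirs.

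The other members of this group shared the pattern. Potri.006G048100.v3.0 (chromosome 6, 3435767 to 3437243) stood at 10.5, 25.0 and 71.5 CPM in WT Zn, against 0.432, 0.659 and 0.406 CPM in WT control; it overlaps Potri.006G047200.v3.0 on the opposite strand, and the strand setting of the counting is not given in the sources used here. Its call was lost under limma-voom (adjusted p = 0.127) and with WT control 3 as the only control (edgeR adjusted p = 0.0618). Potri.004G199900.v3.0 (chromosome 4, 21183971 to 21185263) stood at 22.8, 17.4 and 57.2 CPM in WT Zn, against 1.25, 0.507 and 0.290 CPM in WT control. WT Zn 3 was highest among the Zn libraries for all 8 genes, and WT control 3 was lowest among the controls for 7. Potri.014G050500.v3.0 (chromosome 14, 4051783 to 4054079) stood at 13.7, 22.1 and 35.4 CPM in WT Zn, against 0.432, 0.862 and 0.754 CPM in WT control. Potri.014G092900.v3.0 (chromosome 14, 7243870 to 7244764) varied least of the 8 relative to its change: it stood at 7.28, 14.6 and 15.7 CPM in WT Zn, against 0.288, 0.456 and 0.232 CPM in WT control, a log2 fold change of 5.22 (adjusted p = 6.65e-06 by edgeR, SE 0.36). The eighth, Potri.001G255100.v3.0, is described with the genes that moved most without the third libraries.

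The 8 genes with the largest fall had log2 fold changes of -3.31 to -5.09. Potri.008G136200.v3.0 (chromosome 8, 9062110 to 9066851) stood at 0.425, 0.731 and 0.201 CPM in WT Zn, against 9.40, 9.07 and 27.0 CPM in WT control (log2 change -5.09 with SE 0.70, adjusted p = 0.000554 by edgeR). WT control 3 alone was about 3 times as high as the other controls. Potri.003G219400.v3.0 (chromosome 3, 21513791 to 21516297) showed the same shape, with 1.18, 0.731 and 0.451 CPM in WT Zn, against 6.48, 5.73 and 16.5 CPM in WT control. Potri.001G025200.v3.0 (chromosome 1, 1873660 to 1875587) stood at 16.7, 12.1 and 7.32 CPM in WT Zn, against 92.6, 85.1 and 182 CPM in WT control. In these 3 genes the groups stayed apart while the third libraries widened the gap from both sides.

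Other genes of this group fell with less spread. Potri.004G019400.v3.0 (chromosome 4, 1286295 to 1290483) stood at 1.37, 0.975 and 0.953 CPM in WT Zn, against 17.0, 12.01 and 17.1 CPM in WT control (log2 change -3.79 with SE 0.34, adjusted p = 3.95e-05 by edgeR). Potri.003G111500.v3.0 (chromosome 3, 13504736 to 13508815) stood at 9.45, 8.84 and 7.87 CPM in WT Zn, against 93.0, 73.3 and 105 CPM in WT control. The fall of Potri.003G111500.v3.0 was 10.4-fold by the ratio of means, and its 3 Zn libraries nearly coincided. Potri.002G174600.v3.0 stood at 1.13, 1.46 and 0.702 CPM in WT Zn, against 15.8, 17.5 and 11.1 CPM in WT control, and was the only one of the 8 for which WT control 3 was the lowest control. The remaining 2, Potri.012G136600.v3.0 and Potri.011G161300.v3.0, had log2 fold changes of -3.48 and -3.35; the first overlaps Potri.012G136700.v3.0 on the same strand. WT Zn 3 was the lowest Zn library for all 8 genes, and WT control 3 the highest control for 7.

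**Figure D2:**
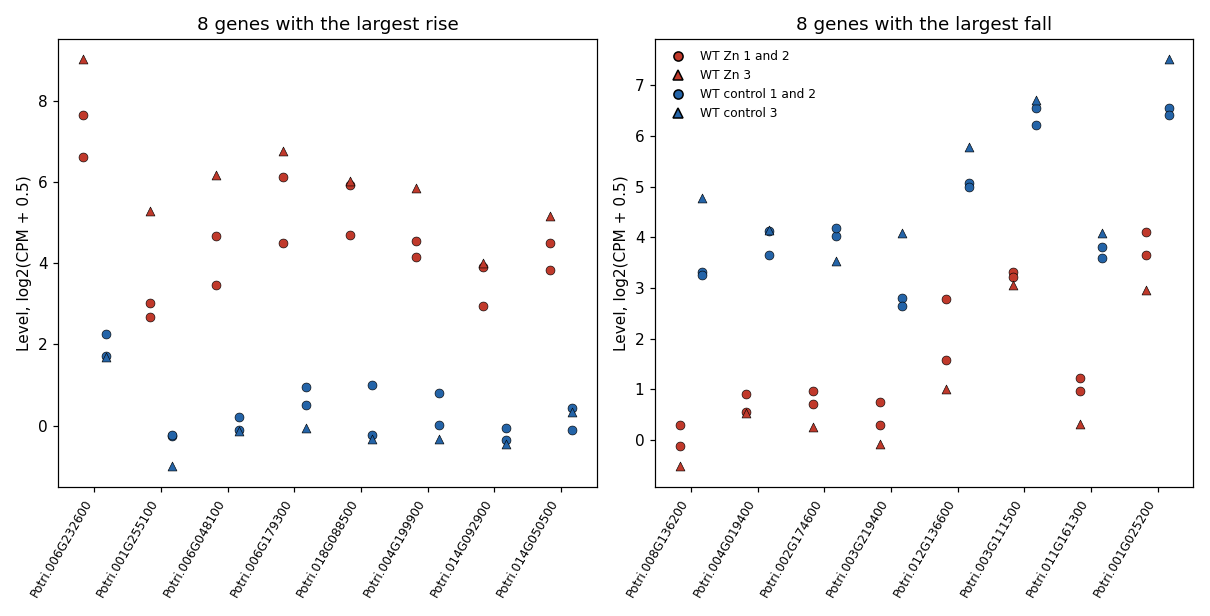
Levels as log2(CPM + 0.5) of the 8 genes with the largest rise (left) and the 8 with the largest fall (right), with WT Zn libraries left of WT control libraries for each gene; triangles are WT Zn 3 and WT control 3. The groups are apart in every gene, and WT Zn 3 is outermost among the Zn libraries in all 16.

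Of the abundant transcripts, 5 stood out by their gain in CPM. Potri.013G101000.v3.0 (chromosome 13, 11347121 to 11349338) stood at 6399, 8299 and 17928 CPM in WT Zn, against 1332, 865 and 417 CPM in WT control (log2 change 3.64 with SE 0.55, adjusted p = 0.000969 by edgeR). Every Zn library was at least 4 times any control, and the values fanned out in opposite directions in the third libraries. Per length, the authors' FPKM averaged 9343 in WT Zn and 758 in WT control for this gene. Potri.001G102400.v3.0 (chromosome 1, 8187840 to 8188878) was, in contrast, even among Zn libraries: 5037, 5413 and 5154 CPM in WT Zn, against 1222, 1537 and 999.9 CPM in WT control (log2 change 2.05 with SE 0.17, adjusted p = 2.12e-05 by edgeR). Potri.001G400100.v3.0 stood at 1616, 2859 and 4265 CPM in WT Zn, against 916, 737 and 283 CPM in WT control, and overlaps Potri.001G400200.v3.0 on the opposite strand. Potri.010G142600.v3.0 and Potri.002G072100.v3.0 rose less, with log2 fold changes of 1.21 and 1.26. Without the third libraries the log2 fold changes of Potri.013G101000.v3.0 and Potri.001G400100.v3.0 were 2.74 and 1.44 against 3.64 and 2.17 with all libraries, and both were still called, although Potri.001G400100.v3.0 was not in the fit of WT libraries alone without the third ones (edgeR adjusted p = 0.0552) or without WT Zn 3 and WT control 2 (0.0555). In OE, Potri.001G400100.v3.0, Potri.010G142600.v3.0 and Potri.002G072100.v3.0 did not pass, with log2 changes of 1.43, 0.55 and 0.59 (adjusted p = 0.0628, 0.138 and 0.0599 by edgeR). The spread behind these p-values came from all 4 groups. The OE groups did not overlap for Potri.001G400100.v3.0 and Potri.010G142600.v3.0, while they did for Potri.002G072100.v3.0.

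The abundant transcripts that lost most in CPM changed 2-fold or thereabouts, and most varied little between libraries. Potri.005G172400.v3.0 (chromosome 5, 18771145 to 18775080) stood at 1579, 1706 and 1661 CPM in WT Zn, against 4260, 3967 and 3713 CPM in WT control (log2 change -1.27 with SE 0.09, adjusted p = 6.65e-06 by edgeR). Potri.003G222700.v3.0 (chromosome 3, 21699512 to 21703592) stood at 944, 1094 and 1165 CPM in WT Zn, against 2307, 2307 and 2086 CPM in WT control. Neither gene had its extreme values in the third libraries in the direction of the response. Potri.010G013400.v3.0, Potri.016G015500.v3.0 and Potri.004G015300.v3.0 had log2 fold changes of -0.92, -0.89 and -0.80. Their WT Zn means were 1678, 1725 and 1492 CPM, against WT control means of 3165, 3204 and 2600 CPM. Potri.004G015300.v3.0 stood at 2284, 2415 and 3102 CPM in WT control 1, 2 and 3, and its log2 fold change was -0.57 without the third libraries. In OE its log2 change of -0.43 did not pass (adjusted p = 0.0661 by edgeR). Potri.010G013400.v3.0 overlaps Potri.010G012100.v3.0 on the opposite strand. With the third libraries alone, Potri.003G222700.v3.0, Potri.010G013400.v3.0 and Potri.016G015500.v3.0 lost their call (edgeR adjusted p = 0.0640, 0.0712 and 0.0817).

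The changes with the smallest p-values included Potri.014G092900.v3.0, described above, and 7 other genes with log2 fold changes of -2.26 to 3.18. Potri.015G087700.v3.0 (chromosome 15, 11029480 to 11033272) had the smallest of all: it stood at 19.9, 24.1 and 17.8 CPM in WT Zn, against 94.5, 94.8 and 106 CPM in WT control (log2 change -2.26 with SE 0.10, adjusted p = 4.77e-07 by edgeR). Potri.001G300900.v3.0 (chromosome 1, 30489404 to 30492653) stood at 169, 165 and 173 CPM in WT Zn, against 84.1, 84.7 and 83.9 CPM in WT control, a change of 2.00-fold by the ratio of means (adjusted p = 6.39e-06 by edgeR, SE 0.06 on the log2 scale). Its 3 control libraries lay within 1 CPM of each other. Potri.002G048000.v3.0 (chromosome 2, 3115683 to 3120730) stood at 37.9, 39.6 and 40.6 CPM in WT Zn, against 112, 114 and 109 CPM in WT control. Potri.013G145600.v3.0 and Potri.014G115200.v3.0 fell with log2 fold changes of -1.47 and -1.30, and Potri.003G000800.v3.0 rose with one of 2.21. Potri.019G099900.v3.0 (chromosome 19, 12964069 to 12966541) stood at 16.3, 15.0 and 12.03 CPM in WT Zn, against 1.20, 1.47 and 2.15 CPM in WT control. In Potri.019G099900.v3.0 the third libraries were the nearest to each other, the reverse of the genes with the largest rise.

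Few genes were present in one group only. Named after their values were seen, 4 genes had at least 10 counts in every WT Zn library and 0 in all 3 WT control libraries. Potri.002G113900.v3.0 had 20, 12 and 89 counts in WT Zn, Potri.018G019700.v3.0 had 22, 20 and 78, Potri.019G027100.v3.0 had 15, 34 and 21, and Potri.T055700.v3.0 had 12, 23 and 20. In the other direction only Potri.001G212900.v3.0 qualified, with 0 counts in WT Zn and 16, 19 and 12 counts in WT control. In OE it had 1, 1 and 2 counts on Zn, against 6, 17 and 10 counts in OE control. In OE Zn, Potri.002G113900.v3.0 had 23, 24 and 24 counts, against 2, 2 and 0 in OE control. Potri.018G019700.v3.0 had 14, 2 and 15 in OE Zn, against 3, 0 and 0 in OE control. For Potri.019G027100.v3.0 they were 10, 6 and 20 in OE Zn, against 3, 2 and 1 in OE control, and for Potri.T055700.v3.0 they were 11, 1 and 14 in OE Zn, against 0 in all OE control libraries. None of these 4 genes met in OE the condition that named it in WT.

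How far this response rests on the third libraries was examined first by leaving both out. The fit then called 5210 of 26113 genes (20%), 2691 higher and 2519 lower. Of these, 4667 were also called in the same direction with all libraries, which is 60.4% of the calls with all libraries and 89.6% of those without the 2. No gene was called in opposite directions, and none of the 7730 genes changed sign. The 3063 calls that were not made again had been near the threshold, with a median adjusted p of 0.0230 and a median absolute log2 fold change of 0.47, against 0.00271 and 0.73 for the 4667.

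Leaving out 1 library of each group lowers the count of calls whichever libraries are chosen, so all 9 combinations were run. They gave 4527 calls (without WT Zn 2 and WT control 3) to 5635 (without WT Zn 1 and WT control 2). The count without the third libraries lay within that range. The 3 combinations without WT Zn 2 gave the lowest counts of all, at 4527, 4573 and 4950. The 6 fits without a single library gave 6028 calls (without WT Zn 2) to 6692 (without WT control 2), with 6439 without WT Zn 3 and 6112 without WT control 3. Calls with the same direction in all 6 of these fits numbered 4678, of which 2350 were higher and 2328 lower. In all 9 combinations 2937 genes were called, 1468 higher and 1469 lower, with a median absolute log2 fold change of 0.88. When the spread was taken from WT libraries alone, 6590 genes were called with all 6 libraries and 6551 without the third ones, although 2 libraries fewer entered. Of these 6551, 5376 were also called in the same direction in the fit of all libraries and 1175 were not. No other pair was left out of the WT fit, so the similar counts cannot be tied to the third libraries.

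**Figure D3:**
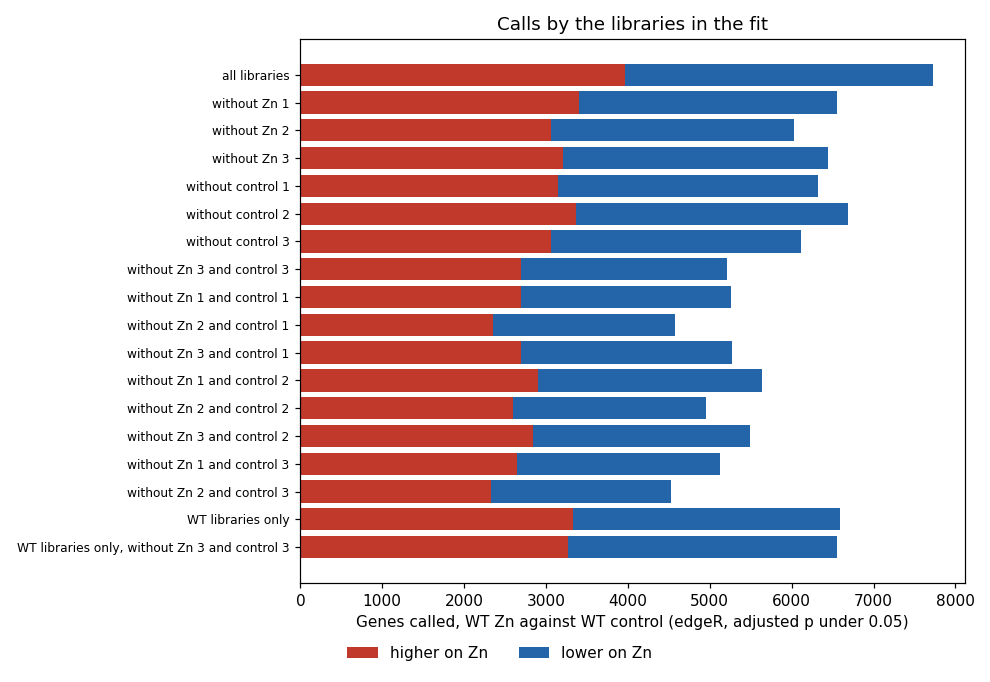
Genes called higher (red) and lower (blue) on Zn in WT, as bars from 0, for the fit of all libraries, fits without 1 WT library, fits without 1 library of each group, and fits of WT libraries only. The bar of 5210 calls without Zn 3 and control 3 lies among those of the other 8 combinations, which run from 4527 to 5635.

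The largest rises were smaller without the third libraries. Of 3970 genes called higher, the log2 fold change was smaller by at least 0.5 in 242 and larger by at least 0.5 in 39. In the other 8 combinations it was smaller by that much in 23 to 152 genes and larger in 53 to 167, and the 3 combinations without WT Zn 3 had the most genes that were smaller (142, 152 and 242). The 414 genes with a log2 fold change of at least 2 had a median of 2.74 with all libraries, 2.44 without WT Zn 3 and WT control 3, and 2.60 to 2.99 in the other 8 combinations. Falls moved less, but in the same way. Of 3760 genes called lower, the change was smaller by at least 0.5 in 93 and larger in 24. In the other 8 combinations it was smaller by that much in 10 to 48 genes and larger in 24 to 84. The 225 genes that fell at least 4-fold had a median of -2.43 without the third libraries, against -2.53 with all libraries. In the other 8 combinations their median was -2.47 to -2.85. All 16 named genes with the largest rise or fall had smaller changes. Those that rose had log2 fold changes of 4.26 to 5.51 without the third libraries, and those that fell -2.62 to -4.02. All 16 were still called in that fit. In the fit of WT libraries alone without the third ones, Potri.006G179300.v3.0 and Potri.018G088500.v3.0 lost their call (edgeR adjusted p = 0.0972 and 0.0670). Selection by size with all libraries favours genes that these libraries enlarge, so the smaller changes of these 16 are a description and not a measure of the whole response.

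Among called genes with a WT mean of 5 CPM or more, the 6 that moved most between the fits were named. All were higher on Zn, with WT Zn 3 highest and WT control 3 lowest. The rule picks genes in which the third libraries lie far out, so this order follows from it and is no separate support. Potri.001G255100.v3.0 (chromosome 1, 26479372 to 26481456) stood at 5.91, 7.62 and 38.6 CPM in WT Zn, against 0.336, 0.355 and 0 CPM in WT control; its log2 fold change was 6.14 (SE 1.25) with all libraries and 4.26 without the third ones. Its call was lost under limma-voom (adjusted p = 0.133), with WT control 3 as the only control (edgeR adjusted p = 0.0727) and with the third libraries alone (0.0540). Potri.014G103000.v3.0 (chromosome 14, 8085842 to 8087890) stood at 7.94, 9.45 and 58.7 CPM in WT Zn, against 1.29, 1.37 and 1.22 CPM in WT control; its log2 fold change was 4.29 with all libraries and 2.70 without them. In Potri.014G103000.v3.0 the control libraries hardly differed, and without WT Zn 3 alone the log2 fold change was 2.72. Its call was lost under limma-voom (adjusted p = 0.0649) and with WT control 3 as the only control (edgeR adjusted p = 0.0706). Potri.016G112400.v3.0 (chromosome 16, 11560533 to 11562895) stood at 10.7, 16.4 and 61.1 CPM in WT Zn, against 2.97, 2.69 and 0.871 CPM in WT control; its log2 fold change was 3.73 with all libraries and 2.25 without them. Potri.015G091900.v3.0 went the same way, with 3.11 and 1.78.

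The other 2 of these 6 lost their call. Potri.011G118900.v3.0 (chromosome 11, 14442964 to 14444649) stood at 277, 451 and 1528 CPM in WT Zn, against 222, 191 and 71.7 CPM in WT control. Its log2 fold change was 2.22 (adjusted p = 0.0480 by edgeR, SE 0.75) with all libraries and 0.82 without the third ones (edgeR adjusted p = 0.470). WT Zn 1 lay close to WT control 1. The call stood near the threshold throughout: it was lost in 19 of 27 settings, among them without WT Zn 2 (edgeR adjusted p = 0.0531), without WT control 1 (0.0700), without WT control 2 (0.0903) and under limma-voom (0.0583). Potri.008G174100.v3.0 (chromosome 8, 11882935 to 11885754) stood at 19.8, 25.9 and 102 CPM in WT Zn, against 6.57, 8.16 and 4.18 CPM in WT control. Its log2 fold change was 2.96 (edgeR adjusted p = 0.00943) with all libraries and 1.63 (edgeR adjusted p = 0.0794) without them. It was also lost without WT Zn 3 and WT control 1 (0.0600) and with WT control 3 as the only control (0.0874).

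**Figure D4:**
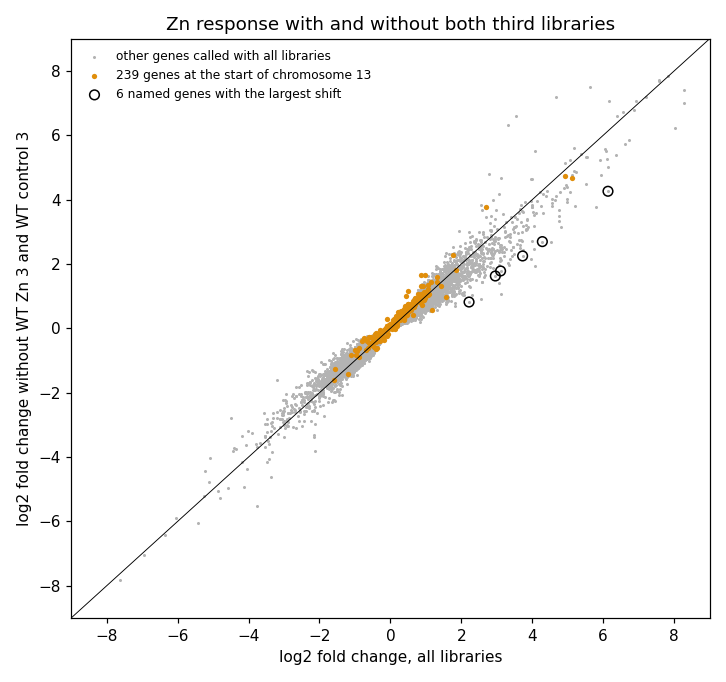
For each gene called with all libraries, the log2 fold change WT Zn over WT control with all libraries (horizontal) and without WT Zn 3 and WT control 3 (vertical), with the line of equality; orange marks the 239 genes tested at the start of chromosome 13, called or not, and circles the 6 named genes with the largest shift. Most of the large rises lie below the line, and the orange points between 0 and 2 lie mostly above it.

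Genes chosen outside WT gave a measure of the response that these libraries had not selected. A fit of the 6 OE libraries alone called 2052 genes higher and 2044 lower on Zn. In WT, 1609 of the 2052 were called higher (78.4%, against 15.3% of all genes) and 1618 of the 2044 lower (79.2%, against 14.5%), with 1 gene of each list called the other way. The WT calls took their spread from all 12 libraries, OE included, so these shares are not independent of how the genes were chosen. The median log2 fold change in WT was 0.68 for the first list and -0.68 for the second. Without the third libraries the medians were 0.66 and -0.68, so the typical size of the WT response on these genes differed little.

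Each WT library was then placed by the mean log2(CPM + 0.5) of the 2052 genes minus that of the 2044. WT Zn 1, WT Zn 2 and WT Zn 3 lay at 0.33, 0.35 and 0.53, against -1.26, -1.19 and -1.30 for WT control 1, WT control 2 and WT control 3. The group means were 0.40 ± 0.11 for WT Zn and -1.25 ± 0.06 for WT control (SD, n = 3 each), a difference of 1.65. WT Zn 3 lay clearly above the other Zn libraries and WT control 3 only just below WT control 1. Leaving both out gave a difference of 1.56. A permutation test of 3 against 3 libraries cannot go below p = 0.1 and is not given. The order at single genes was looser. WT Zn 3 was the highest Zn library for 46.9% of the 2052 genes and the lowest for 46.9% of the 2044. It was also the lowest for 33.8% of the 2052 and the highest for 31.5% of the 2044. WT control 3 was the lowest control for 43.4% of the 2052 and the highest for 45.8% of the 2044. WT control 2 was the highest control for 43.5% of the 2052 and the lowest for 32.6% of the 2044.

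**Figure D5:**
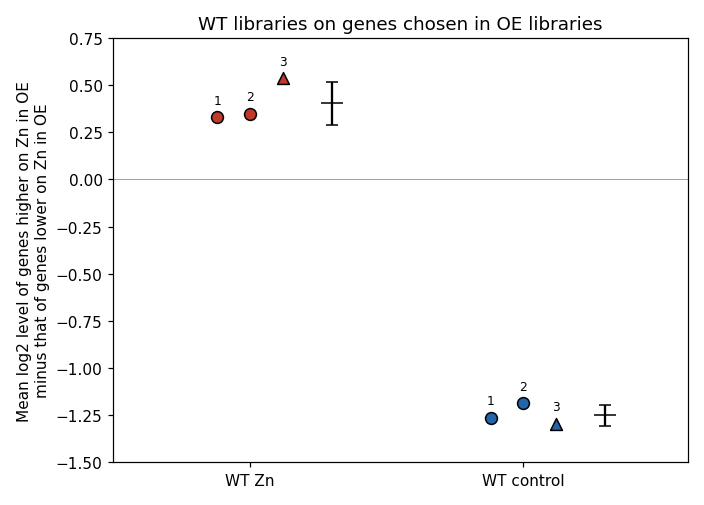
Mean log2 level of the 2052 genes higher on Zn in OE minus that of the 2044 genes lower on Zn in OE, for each WT library by number, with the group mean and SD (n = 3) as a bar at the right of each group. The WT Zn libraries lie at 0.33 to 0.53 and the WT control libraries at -1.30 to -1.19, with WT Zn 3 the highest.

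The named genes were also read in the OE contrast. The naming rule used its libraries for the filter and the estimate of spread, not for the WT fold changes. Each of the 38 genes named by rule kept its sign in OE, and 31 were called there in the same direction, against 17.1% of all genes called in OE in either direction. By class of size and direction, 96.7% to 99.4% of all WT calls kept their sign in OE. The kept signs are therefore no trait of the named genes. Potri.006G232600.v3.0 averaged 99.98 CPM ± 4.21 in OE Zn and 5.54 CPM ± 0.94 in OE control (SD, n = 3 each), with a log2 fold change of 4.17 in OE. Potri.013G101000.v3.0 averaged 4807 CPM ± 2619 in OE Zn and 572 CPM ± 43.0 in OE control, a log2 fold change of 3.07. Potri.015G087700.v3.0 averaged 20.9 CPM ± 0.81 in OE Zn and 89.3 CPM ± 5.66 in OE control, a log2 fold change of -2.09. The share of WT calls also called in OE in the same direction increased with their absolute log2 fold change in WT. Among higher genes it was 40.01% of 2749 under 1, 51.3% of 807 from 1 to 2, 58.5% of 253 from 2 to 3 and 66.5% of 161 at 3 or more. Among lower genes the shares in the same classes were 40.7% of 2761, 62.7% of 774, 73.7% of 156 and 73.9% of 69. Larger changes pass a test more easily, so the increase is not read as a trait of the response. The sizes in WT and OE are not compared, since the genes were chosen in WT.

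Part of what set the third libraries apart lay in a stretch of the genome known from an earlier scan of these data. In the first 2.3 Mb of chromosome 13, 181 genes averaging 5 CPM or more had a median log2 ratio to the OE libraries of the same medium of 0.02 in WT Zn 1, 0.02 in WT Zn 2 and -0.92 in WT Zn 3. In WT control 1, WT control 2 and WT control 3 it was -0.26, -0.49 and -0.94. The 527 other genes of that chromosome had medians of 0.00 to 0.02 in all 6 libraries. Of 239 genes tested in the stretch, 22 were called higher and 6 lower on Zn with all libraries, 11.7% against 30.0% elsewhere.

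The Zn calls in this stretch followed the libraries used. Without the third libraries 94 of the 239 genes were called higher and 5 lower (41.4%, against 19.8% elsewhere). Without WT Zn 3 alone 111 were called higher and 4 lower (48.1%, against 24.4% elsewhere), and the median log2 change was 0.51. Without WT control 3 alone 9 were called higher and 7 lower (6.69%, against 23.4% elsewhere), with a median of 0.14. In OE, 5 genes of the stretch were called higher and 5 lower (4.18%, against 17.2% elsewhere), with a median of -0.0016. Of the 543 calls that appeared only without the third libraries, 74 lay in the stretch (13.6%, where the stretch holds 0.915% of the genes tested). The stretch was known from a scan of these same data, so these counts and shares are not independent of how it was chosen. What lowered these genes in part of the WT libraries was not tested.

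The third libraries also differed outside that stretch. Over 18708 genes averaging 5 CPM or more, WT Zn 3 was at least 2-fold above both other WT Zn libraries at 59 genes and 2-fold below both at 150, of which 66 lay in the stretch. WT control 3 was 2-fold above both other controls at 16 genes and below both at 125, of which 8 lay in the stretch. The other 4 WT libraries departed in this way at 15 to 50 genes each and the 6 OE libraries at 19 to 73.

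A single locus showed how control libraries can set a call. The labels name PuHSFA4a as the overexpressed gene, and no ID is paired with that name. Potri.011G071700.v3.0 (chromosome 11, 6828550 to 6830854) had, among 4931 genes averaging 50 CPM or more, the widest gap by which all OE libraries exceeded all WT libraries. In WT it stood at 33.1, 32.6 and 33.1 CPM in WT Zn, against 129, 165 and 37.1 CPM in WT control. Its log2 fold change was -1.74 with all libraries (adjusted p = 0.00798 by edgeR, SE 0.39) and -2.16 without the third ones. With WT control 3 as the only control it was -0.17, and the call was lost in 10 of 27 settings. At this locus WT control 3 lay near the Zn libraries and the other 2 controls stood high, so the fall on Zn rested on WT control 1 and WT control 2. In OE it averaged 257 CPM ± 16.3 in OE Zn and 339 CPM ± 8.13 in OE control (SD, n = 3 each), a log2 change of -0.40 that did not pass (adjusted p = 0.511 by edgeR).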

How the data were processed

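RNA was extracted from roots by a CTAB method and libraries were built with a TruSeq kit, per the labels' protocols. The submitters' processing notes list TopHat2 2.1.1 and HTSeq 0.6.0. Genome build, strand setting and handling of multiply mapped reads: not given in the sources used here. Genes with near-identical copies may share reads. Each deposited file lists 39602 genes, 39379 with an ID that begins with Potri and 223 named new. The counts deposited by the authors were analysed as estimated counts, although whole, because 30.7% to 32.1% of detected genes lie 1 above the value implied by the authors' normalized signal (tolerance 0.02 counts). The authors' FPKM values served only for levels per length.

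Counts entered edgeR 4.0.16 (R 4.3.3, limma 3.58.1): filterByExpr, TMM, 4 group means over 12 libraries, 8 residual degrees of freedom, robust quasi-likelihood F-test, Benjamini-Hochberg threshold 0.05. SE is the absolute log2 fold change over the square root of F. The test was run on simulated counts with known answers. Alternatives were DESeq2 1.42.0, limma-voom, other scalings and filters, WT libraries alone and subsets of libraries; the fits without 1 library of each group (other than without the third ones) and of WT alone without the third ones were added after seeing the data. Replicate pairs differed by 5.71 to 33.0 chi-square per degree of freedom, and none was treated as a duplicate. Libraries were grouped by title and numbered in order of deposit.

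Genes were named by rule among calls with at least 5 CPM in WT and no overlap between groups: the 8 largest log2 fold changes, 5 largest CPM differences and 4 smallest p-values in each direction. With overlap allowed and the same limit of 5 CPM, the 6 calls that moved most without the third libraries were added. So was 1 locus from an earlier reading. Lists by function and cell type markers could not be filled for want of gene names. The members, rules and lists were chosen with earlier results of these data known.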

Additional observations from a re-analysis of the deposited data

How the results depend on the processing

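With all libraries 7730 genes were called, and 7387 to 8246 under DESeq2 (8246), under limma-voom, after upper-quartile or median-ratio scaling, under the filters on low counts tried and the counts implied by the normalized signal. Requiring a 2-fold change as well left 2220 (1221 higher, 999 lower). Leaving out 1 WT library, or 1 of each group, gave 4527 to 6692 calls, 2326 to 3399 of them higher and 2201 to 3329 lower. With WT control 3 as the only control 4866 genes were called (2388 higher, 2478 lower), with WT Zn 3 as the only Zn library 4481 (2312 and 2169), and with the third libraries set against each other 3310 (1607 and 1703); the spread of a lone library was assumed equal to that of other groups. Over 27 settings and 39 named genes, 1007 results kept direction and call, 46 kept direction only and 0 reversed. The difference between WT Zn and WT control in the score on OE genes was 1.65, and 2.79 when only OE calls of at least 2-fold entered. The cause of these differences was not tested. No paired analysis was possible because the titles carry no replicate numbers shared between groups. The planned counts by gene list were not run, since no list could be filled. Depth limits genes under about 1 CPM most, where called changes had a median absolute log2 size of 2.19.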
